A study of Pimephales promelas with 26 samples.

Results

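The 100 most abundant messenger RNAs of the 7-day-old fathead minnow larva were taken as the messenger RNA models, the transcripts whose RefSeq identifier starts with XM_, with the highest mean TPM over the 5 water pools. TPM (transcripts-per-million) divides reads by transcript length and scales each library to the same sum, so it compares levels between genes within a library. The 100 members were drawn from 48442 messenger RNA models among 57299 transcripts. They belonged to 2 main classes, with 63 models of cytosolic ribosomal proteins and 10 models of sarcomere proteins. Another 12 models had other named roles, 9 carried a locus number without a name, and 6 could not be paired with a gene. Those last 6 are given by their transcript identifier.

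The fathead minnow (Pimephales promelas) is a cyprinid fish on which water-borne chemicals are commonly tested. RNA was measured in pools of 20 whole larvae kept in water with or without fluoxetine from 6 h to 7 days after fertilization. Fluoxetine is an antidepressant that blocks the serotonin transporter. There were 5 pools in water without fluoxetine, 3 at 0.19 µg/L, 5 at 0.74 µg/L, 5 at 3.38 µg/L, 5 at 10.2 µg/L and 3 at 47.2 µg/L, all measured concentrations. All groups were whole bodies kept in glass dishes with static renewal of the solution, and no genotype or strain was given. The protocol describes a set of 20 embryos for each replicate, so p-values refer to the spread between these pools, which were pooled before sequencing. Because whole bodies were extracted, fewer cells of a type and less RNA per cell cannot be told apart. Libraries were poly(A)-selected and held 13515500 to 27615000 estimated counts. Of 45 markers of 13 cell types, 36 had a transcript in the table, and every cell type had a marker above 0 in all 26 libraries.

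Ribosomal proteins are made in near-equal numbers in every growing cell, because each ribosome holds a copy of most of them, and their messengers are short and abundant. Skeletal muscle makes up much of the body of a swimming fish larva, and its thin and thick filaments are built from actin, tropomyosin, troponin and myosin. Myosin light chains, creatine kinase and the calcium pump of the sarcoplasmic reticulum are therefore among the usual abundant messengers of such larvae.

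In water, the 100 members held 37.0% ± 1.08 of all TPM (SD, n = 5), with 35.7%, 38.2%, 37.6%, 36.2% and 37.6% in the 5 pools. The 10 highest held 12.8% ± 0.964, and the highest alone held 2.31% ± 0.219. Abundance was uneven at the top of the list, since 7 models carried 10% of TPM, 45 carried 25%, and 273 were needed for 50%. All messenger RNA models together held 94.3% of TPM in water, and non-coding models held the rest. Because the members were chosen on these pools, the values in water are a description.

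The highest model was LOC120489679, a locus without a name, at 23129 ± 2193 TPM (SD, n = 5 water pools, as for the levels that follow). It was followed by actc1b, an actin of striated muscle, at 22459 ± 1737 TPM. The next 3 were unnamed loci, LOC120490577 at 18356 ± 1169 TPM, LOC120490614 at 15664 ± 2780 TPM and LOC120469711 at 10084 ± 501 TPM. LOC120490577 and LOC120490614 lie next to each other with 0 genes between them in the assembly fPimPro1.hap1.1. The water pools of ranks 1 and 2 overlapped, as did those of ranks 3 and 4, while all pools of actc1b lay above those of LOC120490577 and all pools of LOC120490614 above those of LOC120469711.

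Ranks 6 to 9 were all sarcomere models. The myosin light chain mylz3 stood at 9644 ± 692 TPM and the regulatory light chain mylpfb at 9235 ± 440 TPM. The tropomyosin tpma, transcript XM_039662808.1, stood at 7252 ± 474 TPM. The troponin C model tnnc2.2, which carries the calcium switch of the thin filament, stood at 6422 ± 663 TPM. Rank 10 was rplp1, a protein of the stalk of the large ribosomal subunit, at 5543 ± 249 TPM, which made it the most abundant ribosomal protein model. The lowest of the 63 ribosomal protein members was rpl22 at rank 99, with 1555 ± 75.5 TPM. The sarcomere members spanned a wider range, from actc1b to the second tpma transcript, XM_039662810.1, at 1686 ± 317 TPM.

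The remaining named members had roles held by 1 to 3 members each. The muscle creatine kinase ckma, which buffers ATP in the muscle fibre, stood at 4856 ± 394 TPM, and the calcium pump atp2a1l at 3517 ± 203 TPM. The plasma apolipoproteins, made by liver and yolk syncytial layer in zebrafish, were apoa1b at 4516 ± 413 TPM and apoa2 at 4280 ± 860 TPM. The cytoplasmic actin actb2 stood at 3142 ± 316 TPM, and tmsb4x, a thymosin that binds actin monomers, at 1920 ± 186 TPM. The growth-related protein tpt1 stood at 2520 ± 160 TPM. The mitochondrial carrier of ADP and ATP, slc25a5, stood at 1991 ± 80.2 TPM. The constitutive chaperone hspa8 stood at 1809 ± 55.5 TPM. The epidermal keratin krt4 closed the list at rank 100 with 1551 ± 197 TPM.

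The lower edge of the list was not a gap. Just inside it were LOC120488799 at 1563 TPM, rpl22 at 1555 TPM and krt4 at 1551 TPM. Just outside it were rpl23a, also a ribosomal protein, at 1531 TPM, the unpaired model XM_039673564.1 at 1512 TPM, and ak1, a muscle adenylate kinase, at 1510 TPM. No model with the symbol of a globin, lens crystallin, digestive enzyme, histone or collagen was on the list. The 9 members with a locus number only and the 6 unpaired members could not be checked for these classes.

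**Figure D1:**
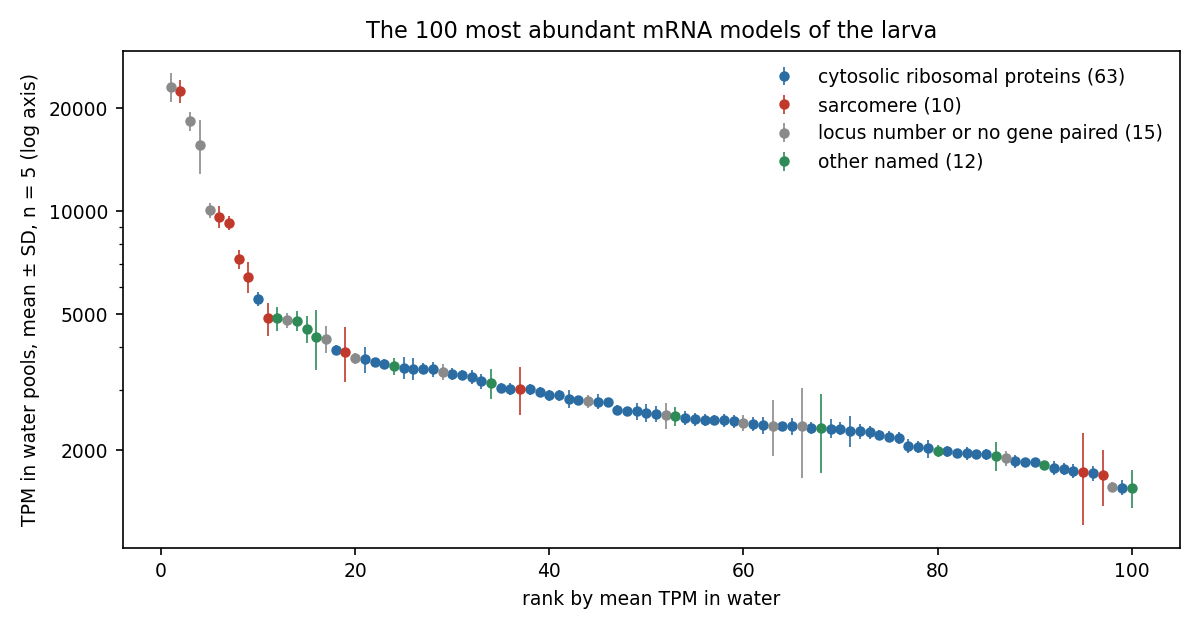
TPM of the 100 members in water against their rank, with points at the mean, bars at the SD of 5 pools and a log vertical axis. The curve falls steeply over the first 10 ranks, from 23129 to 5543 TPM, and then slowly to 1551 TPM, with the ribosomal protein models packed together between ranks 10 and 99.

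The members were short. Their median length was 735 bases, against 2545 bases over all messenger RNA models. The 63 ribosomal protein members had a median of 578 bases and the other 37 a median of 1124 bases. The median effective length, the part of a transcript where a fragment can start, was 536 bases for the members and 2278 bases for all models. Ranking by CPM (counts-per-million), without dividing by length, kept 61 of the 100 on the list. On that scale LOC120469711, with 5967 bases the longest of the members, came first with 41477 CPM in water. It was followed by actc1b with 20714 CPM, and atp2a1l with 3612 bases moved from rank 24 to rank 4. The members held 22.7% ± 0.864 of estimated counts in water (SD, n = 5), against 37.0% of TPM. Every member had at least 3123 estimated counts in each of the 26 libraries.

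Ribosomal protein members held 16.4% ± 0.599 of all TPM in water and sarcomere members 7.02% ± 0.577. Models with a locus number only held 8.39% ± 0.597, because 4 of the 5 highest ranks were among them. Across the 6 groups in order of concentration, from water to 47.2 µg/L, the mean share of the 100 members was 37.0%, 37.2%, 36.5%, 38.0%, 38.2% and 36.1%. The SDs in the same order were 1.08, 0.777, 1.08, 1.07, 2.27 and 0.915 (n = 5, 3, 5, 5, 5 and 3). Over all 26 pools the share stayed between 34.8% and 41.1%, and both of these extremes were pools at 10.2 µg/L. Each fluoxetine group overlapped the range of the water pools.

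The ribosomal protein members held 15.6% ± 0.748 of TPM at 47.2 µg/L (n = 3) and 16.4% ± 0.599 in water (n = 5), and these ranges overlapped too. Among the summed shares of the role lists, those of the 2 models actb2 and tmsb4x and of the chaperone hspa8 had groups clear of water. The summed share of actb2 and tmsb4x was 0.611% ± 0.0314 at 0.74 µg/L, against 0.506% ± 0.0375 in water. The share of hspa8 was 0.197% ± 0.00356 at 0.19 µg/L (n = 3), against 0.181% ± 0.00555 in water (n = 5). At 47.2 µg/L it was 0.195% ± 0.00694 (n = 3). The lowest pool there, at 0.1899%, lay barely above the highest water pool, at 0.1897%.

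**Figure D2:**
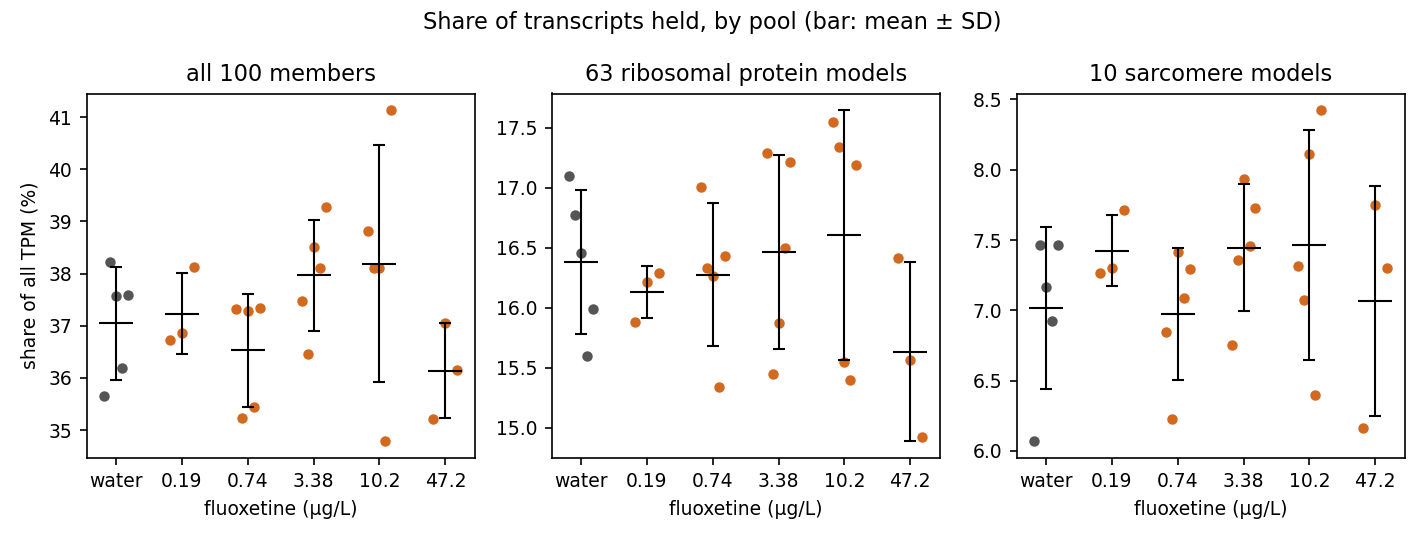
Share of all TPM held by the 100 members, the 63 ribosomal protein models and the 10 sarcomere models in each pool, with fluoxetine concentration on the horizontal axis and black bars at mean ± SD. The vertical axes do not start at 0. All fluoxetine groups overlap the water pools, and the pools at 10.2 µg/L are the widest, from 34.8% to 41.1% for the 100 members.

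The list itself was close to the same in every group. When each fluoxetine group was ranked by its own mean TPM, its 100 highest messenger RNA models contained 96 members at 0.19 µg/L, 95 at 0.74 µg/L, 97 at 3.38 µg/L, 97 at 10.2 µg/L and 95 at 47.2 µg/L. Ranked pool by pool, 93 to 98 members were among the 100 highest, and 87 members were there in all 26 pools. Ranking by the mean of the 21 fluoxetine pools kept 98 members. LOC120488799 and rpl22 left the list, and rpl23a was among the models that entered.

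The members varied little between pools. The median coefficient of variation (SD divided by mean) of TPM over the 5 water pools was 4.90% for members, from 2.02% to 30.1%, with 57 members below 5%. It was 11.9% for the next 900 messenger RNA models and 28.8% for all transcripts tested. Ribosomal protein members had a median of 4.30%, and sarcomere members 10.7%. The steadiest were ribosomal proteins, led by rps29 with 1968 ± 39.7 TPM and rps10 with 1851 ± 37.5 TPM. They were followed by rps13 with 1846 ± 43.2 TPM, rps27a, a fusion of ubiquitin with a ribosomal protein, with 2762 ± 71.3 TPM, and rpl6 with 2357 ± 61.4 TPM.

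The widest spread in water was that of myl1, an essential myosin light chain, at 1257, 2097, 1065, 2105 and 2101 TPM. Its 5 pools fell near 2 levels, with replicates A and C low. LOC120484549 followed with 3124, 2630, 1746, 2733 and 1512 TPM. The apolipoprotein apoa2 and the tpma transcript XM_039662810.1 had coefficients of 20.1% and 18.8%. In the other groups the median coefficient of TPM over members was 3.22% at 0.19 µg/L (n = 3) and 5.03% at 0.74 µg/L. It was 6.03% at 3.38 µg/L, 7.86% at 10.2 µg/L and 5.58% at 47.2 µg/L (n = 3). The order of the groups depended on the scale. In CPM scaled by TMM, the factor used in the tests, water had the lowest median of the 6 groups, at 4.79%. On that scale the median was 6.26% at 0.19 µg/L and highest at 10.2 µg/L, at 11.6%. In CPM without a scaling factor it was 4.74% in water and 4.7% at 0.19 µg/L. The biological coefficient of variation that edgeR fitted to counts of all 26 libraries, which did not use TPM, had a median of 9.12% for members, 13.5% for the next 900 models and 35.4% for all transcripts tested.

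**Figure D3:**
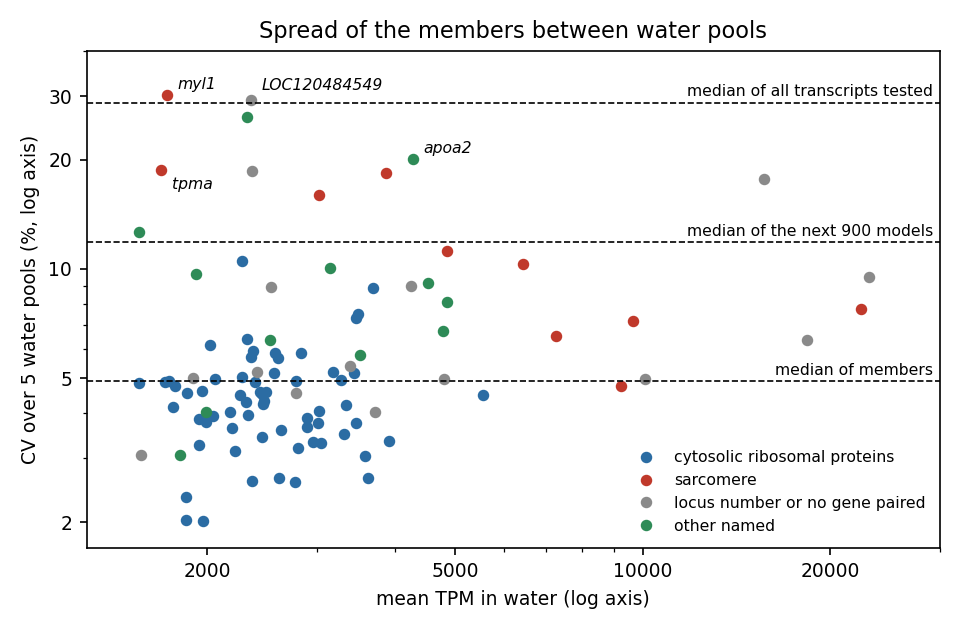
Coefficient of variation over the 5 water pools against mean TPM in water for the 100 members, both on log axes, with dashed lines at the medians of the members, of the next 900 models and of all transcripts tested. Ribosomal protein models cluster around 4.30%, and myl1, LOC120484549 and apoa2 lie at 20.1% or more.

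Group means of the members moved little across the 6 groups. The ratio of the highest to the lowest group mean TPM had a median of 1.13 over the 100 members, was below 1.2 for 80 of them, and reached 1.5 in 2. These were the tpma transcript XM_039662810.1, with a ratio of 2.43, and LOC120484549, with a ratio of 1.65. For 93 members, all 26 pools lay within 2-fold of each other.

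Counts were tested with edgeR's quasi-likelihood test in a fit to all 43837 transcripts that passed the count filter, which all 100 members did. Calls were made where the p adjusted by Benjamini-Hochberg was below 0.05. Contrasts with water used the pools that chose the members, so they lean, if anything, to lower in fluoxetine. Against water, edgeR called 0 members at each of the 5 concentrations, where it called 0.0502% of all transcripts at 0.19 µg/L, 0.089% at 0.74 µg/L, 0% at 3.38 µg/L, 0% at 10.2 µg/L and 0.103% at 47.2 µg/L. At an unadjusted p below 0.05, there were 15, 16, 0, 0 and 12 members in the same order, against 8.75%, 8.1%, 4.17%, 5.34% and 9.35% of all transcripts. DESeq2, run on the same counts, called 2, 3, 0, 0 and 0 members, against 1.35%, 0.926%, 0.189%, 0.242% and 1.79% of all transcripts. Its calls were the tpma transcript XM_039662810.1 and the unpaired XM_039686724.1 at 0.19 µg/L, and rps20, rpl4 and actb2 at 0.74 µg/L. The slope of log2 expression on log2 concentration over the 5 fluoxetine groups, which used no water pool, passed for 0 members with edgeR, against 0.00684% of all transcripts. There, 5 members had an unadjusted p below 0.05 with edgeR, against 6.39% of all transcripts. DESeq2 called 1 on the slope, krt4, against 0.668% of all transcripts.

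In the authors' deposited table at 0.19 µg/L, 3 members passed an adjusted p of 0.05, all higher, against 1.75% of the transcripts in that table. They were rps20, the tpma transcript XM_039662810.1 and XM_039686724.1. In the authors' deposited table at 0.74 µg/L, 3 members passed, rps20, actb2 and rpl4, all higher, against 1.48%. The authors' deposited tables at 3.38, 10.2 and 47.2 µg/L held 0 members that passed, against 0.0668%, 0.089% and 2.49%.

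Across the 5 fluoxetine groups, a test that left water and thus the values that chose the members out of the contrast, edgeR called 6 members, against 3.99% of all transcripts. These were the tpma transcript XM_039662810.1 (adjusted p = 0.00384, edgeR), krt4 (0.0326), actb2 (0.0359), rps15a (0.037), rpl36a (0.0461) and LOC120490577 (0.047). Across all 6 groups it called 2 members, against 2.71% of all transcripts, and these were XM_039662810.1 (adjusted p = 0.00542, edgeR) and actb2 (0.0458). At an unadjusted p below 0.05 there were 25 members across the 5 fluoxetine groups and 21 across the 6 groups, against 16.6% and 14.8% of all transcripts. DESeq2 called 15 in each of these tests, against 11.6% and 10.6% of all transcripts. Leaving out each library in turn gave 1 to 10 members across the 5 fluoxetine groups and 1 to 11 across the 6 groups, both highest without replicate D at 10.2 µg/L. The fragment length, estimated from effective lengths, was 248 to 258 bases in the pools at 0.19 µg/L and 250 to 263 bases at 0.74 µg/L. It was 222 to 242 bases at 3.38 µg/L, 226 to 247 bases at 10.2 µg/L, 228 to 247 bases at 47.2 µg/L and 235 to 240 bases in water. With fragment length as a covariate, edgeR called 0 members in either test, with 0.12 as the adjusted p of XM_039662810.1 across the 5 fluoxetine groups. All pools at 0.19 and 0.74 µg/L had longer fragments than every other pool, so this fit cannot tell fragment length from group. The shares of all transcripts called with this covariate, or with a library left out, are not given here.

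The second tpma transcript, XM_039662810.1, with 1009 bases, showed the widest differences between groups. It stood at 1302, 1537, 2117, 1878 and 1595 TPM in water and at 3388, 3213 and 3266 TPM at 0.19 µg/L. At 0.74 µg/L it stood at 1772, 2248, 3250, 2592 and 2221 TPM, and at 3.38 µg/L at 1119, 1821, 1355, 1664 and 1286 TPM. At 10.2 µg/L it stood at 1104, 872, 2070, 1265 and 1443 TPM, and at 47.2 µg/L at 2591, 2694 and 2405 TPM. The pools at 0.19 and 47.2 µg/L all lay above every water pool, those at 0.74 µg/L lay partly above, and those at 3.38 and 10.2 µg/L overlapped water. The log2 fold change of counts against water was 1.01 ± 0.21 (SE) at 0.19 µg/L (adjusted p = 0.107, edgeR) and 0.60 ± 0.22 at 47.2 µg/L (adjusted p = 0.37, edgeR). With the replicate letter as a block, this transcript was called at 0.19 µg/L (adjusted p = 0.0337, edgeR). The letters did not pair the pools by the rule used, though 25 of 26 libraries correlated best with one of their own letter. The main fit held no term for the letter. Both calls across groups held in all 26 fits that left out a library.

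The other tpma transcript, XM_039662808.1, with 1297 bases, stood at 6569, 7720, 7519, 6963 and 7490 TPM in water and at 6585, 7240 and 7093 TPM at 0.19 µg/L. It was not called in any of the 8 tests. XM_039662810.1 made up 18.8% ± 2.62 of the summed TPM of the pair in water (n = 5), 32.1% ± 1.69 at 0.19 µg/L (n = 3) and 26.7% ± 4.98 at 0.74 µg/L (n = 5). The share was 15.4% ± 3.01 at 3.38 µg/L (n = 5), 14.7% ± 3.68 at 10.2 µg/L (n = 5) and 26.6% ± 3.15 at 47.2 µg/L (n = 3). When counts were summed over the gene, tpma was not called across the 5 fluoxetine groups (adjusted p = 0.818, edgeR). Kallisto divides reads that transcripts of a gene share, so the value of each transcript is less certain than the sum.

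The actin actb2, a building block of the cytoskeleton of non-muscle cells, was highest at 0.74 µg/L. It stood at 3574, 3108, 3237, 3097 and 2695 TPM in water, 3560, 3245 and 3976 TPM at 0.19 µg/L, and 4119, 4495, 3743, 3738 and 3891 TPM at 0.74 µg/L. At 3.38 µg/L it stood at 3219, 3330, 2658, 2735 and 2670 TPM, at 10.2 µg/L at 3054, 2949, 3618, 3225 and 2471 TPM, and at 47.2 µg/L at 4266, 3388 and 3248 TPM. Only the pools at 0.74 µg/L were clear of water, with a log2 fold change of counts of 0.33 ± 0.09 (SE, adjusted p = 0.219, edgeR). The call across the 5 fluoxetine groups held in 16 of 26 fits that left out a library. The call across the 6 groups held in 6 of 26.

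The keratin krt4, a structural protein of the epidermis in zebrafish, averaged 1847 TPM at 0.19 µg/L, 1933 TPM at 0.74 µg/L, 1394 TPM at 3.38 µg/L, 1423 TPM at 10.2 µg/L and 1483 TPM at 47.2 µg/L, with 1551 TPM in water. The 5 pools at 0.74 µg/L stood at 1785, 2338, 1853, 1712 and 1975 TPM, all above those at 3.38 µg/L, which stood at 1216, 1588, 1219, 1701 and 1243 TPM. The call across the 5 fluoxetine groups held in 15 of 26 fits that left out a library. Of 13 other keratin transcripts tested, 5 were called in the same test, with krt97 the only one called against water, at 0.74 µg/L (log2 fold change 0.53 ± 0.09 SE, adjusted p = 0.0148, edgeR).

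The small-subunit protein rps15a and the large-subunit protein rpl36a ran the other way from krt4 at 0.19 and 0.74 µg/L. At 47.2 µg/L they and krt4 all averaged below water. The rps15a model stood at 2724, 2648, 2413, 2444 and 2548 TPM in water, 2318, 2288 and 2208 TPM at 0.19 µg/L and 2355, 2286, 2127, 2118 and 2254 TPM at 0.74 µg/L. At 3.38 µg/L it stood at 2789, 2396, 2531, 2474 and 2627 TPM, at 10.2 µg/L at 2798, 2678, 2335, 2469 and 2699 TPM, and at 47.2 µg/L at 2279, 2226 and 2095 TPM. On the TPM scale all pools at 0.19, 0.74 and 47.2 µg/L lay below every water pool, while those at 3.38 and 10.2 µg/L overlapped water. In CPM scaled by TMM the pools at 0.19 and 47.2 µg/L lay below every water pool, while those at 0.74 µg/L overlapped water.

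The rpl36a model stood at 3077, 3168 and 3105 TPM at 0.19 µg/L, 3286, 3169, 3268, 2930 and 3085 TPM at 0.74 µg/L and 3057, 3081 and 2848 TPM at 47.2 µg/L, against 3654, 3727, 3593, 3473 and 3666 TPM in water. These 3 groups lay below all water pools, and the means at 3.38 and 10.2 µg/L were 3672 and 3696 TPM. The log2 fold change of counts at 47.2 µg/L was -0.26 ± 0.09 for rpl36a (SE, adjusted p = 0.356, edgeR) and -0.22 ± 0.08 for rps15a (adjusted p = 0.405, edgeR). Their calls across the 5 fluoxetine groups held in 4 and 11 of 26 fits that left out a library.

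The third most abundant model, LOC120490577, averaged 15152 TPM at 0.19 µg/L, 14466 TPM at 0.74 µg/L, 19145 TPM at 3.38 µg/L, 19996 TPM at 10.2 µg/L and 15385 TPM at 47.2 µg/L, with 18356 TPM in water. All 5 pools at 0.74 µg/L, from 13308 to 15904 TPM, lay below all 5 water pools, from 16621 to 19505 TPM. In CPM scaled by TMM these pools overlapped water. The call of LOC120490577 held in 3 of 26 fits that left out a library. Its neighbour LOC120490614 stood at 13219 TPM at 0.74 µg/L and 15664 TPM in water and was not called (adjusted p = 0.33 across the 5 fluoxetine groups, edgeR).

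**Figure D4:**
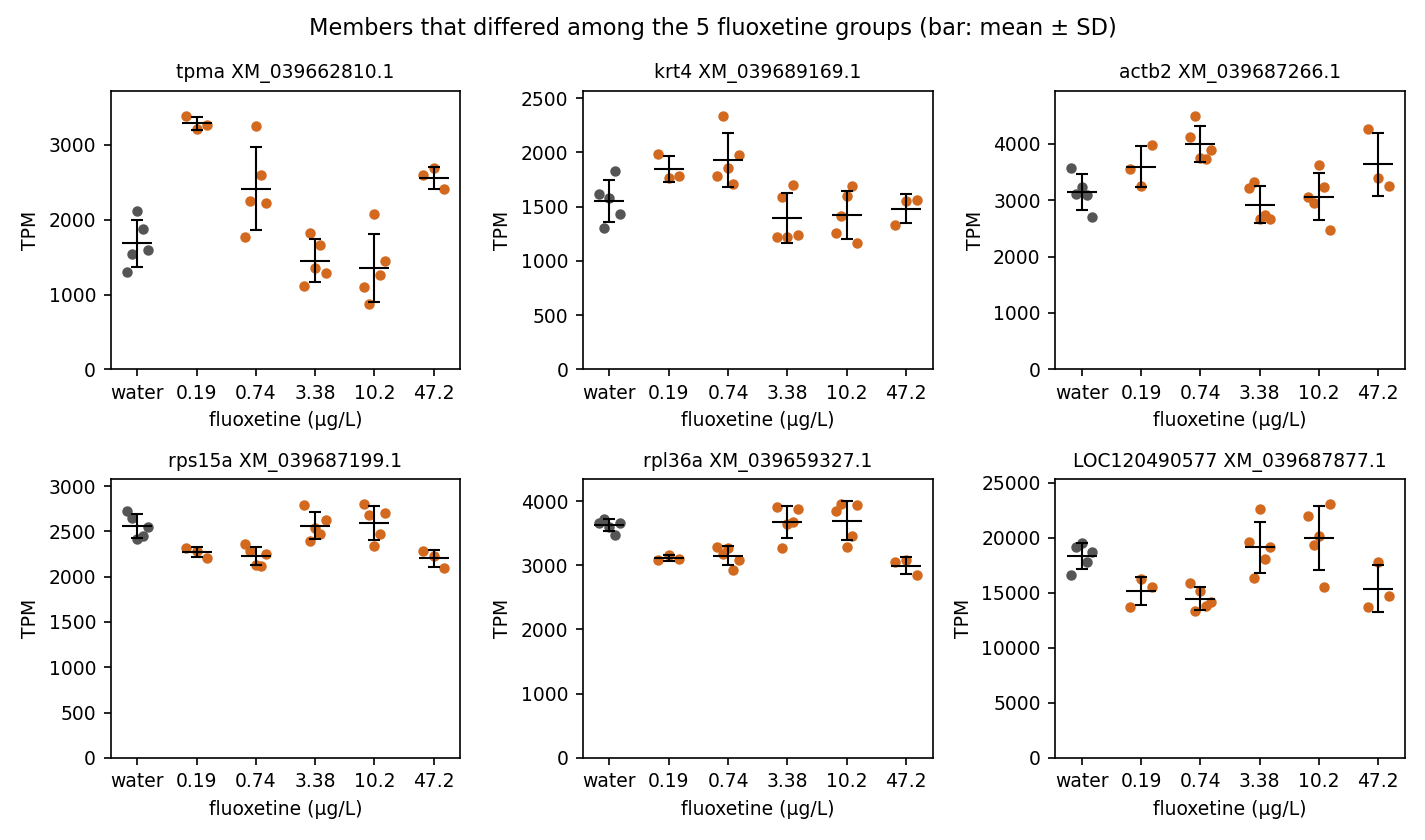
TPM in every pool of the 6 members called by edgeR across the 5 fluoxetine groups, with concentration on the horizontal axis and black bars at mean ± SD. The tpma transcript is high at 0.19, 0.74 and 47.2 µg/L, with means of 3289, 2417 and 2563 TPM, and low at 3.38 and 10.2 µg/L, with means of 1449 and 1351 TPM. The models rps15a, rpl36a and LOC120490577 show the opposite order.

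Over all 100 members, the median log2 fold change of counts against water was 0.03 at 0.19 µg/L, -0.04 at 0.74 µg/L, 0.04 at 3.38 µg/L, 0.06 at 10.2 µg/L and -0.07 at 47.2 µg/L. The medians over all transcripts tested ran from -0.01 to 0.01. Positive values were found for 60, 43, 83, 90 and 28 of the 100 members in the same order. All members were measured in the same pools, so these are not independent observations. The share of positive values over all transcripts is not given here. At 10.2 µg/L, with 90 positive, the share of TPM held by the members ran from 34.8% to 41.1% between pools. Without a scaling factor the members' median at 0.19 µg/L was -0.02, against -0.06 for all transcripts tested, so it still lay above theirs, and the other 4 medians kept their sign. The highest fold changes at 47.2 µg/L, on the log2 scale, were those of the tpma transcript XM_039662810.1 at 0.60 ± 0.22 (SE), of LOC120484549 at 0.43 ± 0.26 and of rps20 at 0.36 ± 0.11. The lowest there were rpl32 at -0.43 ± 0.16, apoa2 at -0.43 ± 0.16 and myl1 at -0.26 ± 0.35. None of these was called.

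The 63 ribosomal protein members lay close together at some concentrations and were spread out at others. At 3.38 µg/L their log2 fold changes ran from -0.00 to 0.16, and at 10.2 µg/L from 0.01 to 0.17. At 0.19 µg/L they ran from -0.36 to 0.39, at 0.74 µg/L from -0.22 to 0.40 and at 47.2 µg/L from -0.43 to 0.36. A change of more than 0.1 in either direction was found in 17, 28, 2, 5 and 27 of the 63 at the 5 concentrations in rising order. Their medians were 0.01, -0.05, 0.03, 0.06 and -0.08. With no scaling factor the median at 0.19 µg/L was -0.04, against -0.06 for all transcripts tested. With TMM computed without the members it was -0.00, against -0.02 for all transcripts tested. The other 4 medians kept their sign under both settings. With fragment length as a covariate the median was 0.05 at 0.74 µg/L and -0.08 at 47.2 µg/L.

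At 47.2 µg/L, 51 of the 63 had a negative fold change, for which the share over all transcripts is not given here. The median of the 63 was -0.10, -0.11 and -0.04 when replicate A, B or C at that concentration was left out. At 0.74 µg/L it ran from -0.07 to -0.01 when a pool of that group was left out. At 0.19 µg/L the sign of the median turned when replicate B or C of that group or replicate D of water was left out, with medians of -0.02, -0.03 and -0.02. Ribosomal protein members no longer than 578 bases had a median of -0.09 at 0.74 µg/L and longer ones 0.02, and at 47.2 µg/L the medians were -0.11 for the shorter and -0.04 for the longer. At 10.2 µg/L the medians were 0.08 for the shorter and 0.04 for the longer. They were -0.03 and 0.06 at 0.19 µg/L, and 0.04 and 0.03 at 3.38 µg/L, for the shorter and the longer. Fragments were also longer than in water at 0.19 and 0.74 µg/L, at 248 to 258 and 250 to 263 bases against 235 to 240 bases. They overlapped water at 3.38, 10.2 and 47.2 µg/L, at 222 to 242, 226 to 247 and 228 to 247 bases. The part of fragment length was not tested beyond the covariate, which cannot be told apart from group at 0.19 and 0.74 µg/L.

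Members were also counted whose pools in a fluoxetine group all stood above, or all below, the 5 water pools in CPM scaled by TMM. The members were chosen on these water pools, so this comparison is not independent of that choice. It leans, if anything, to lower in fluoxetine. At 0.19 µg/L 13 members stood above and 4 below water, against 3.76% and 3.3% of all transcripts. At 0.74 µg/L 6 stood above and 1 below, against 1.47% and 1.16%. At 3.38 and 10.2 µg/L there were 0 members on either side, against 0.262% above and 0.433% below at 3.38 µg/L and 0.344% above and 0.303% below at 10.2 µg/L. At 47.2 µg/L 3 stood above and 12 below, against 3.47% and 3.08%. All 12 were ribosomal protein models, among them rpl9, rpl10a, rpl13a, rpl18, rpl28, rpl30, rpl36a, rps13, rps15, rps15a and rps16. Of these, rpl36a was also below water at 0.19 and 0.74 µg/L. The split depended on the scale. In TPM, 12 members stood above and 16 below at 0.19 µg/L, 8 and 8 at 0.74 µg/L, and 5 and 17 at 47.2 µg/L. Over all transcripts in TPM, 3.07% stood above and 3.85% below at 0.19 µg/L. These shares were 1.35% and 1.2% at 0.74 µg/L, and 3.58% and 3.02% at 47.2 µg/L. In CPM without a scaling factor, 10 stood above and 9 below at 0.19 µg/L, 4 and 9 at 0.74 µg/L, and 3 and 16 at 47.2 µg/L. On that scale 2.74% of all transcripts stood above and 4.57% below at 0.19 µg/L. The shares were 1.01% and 1.6% at 0.74 µg/L, and 3.21% and 3.49% at 47.2 µg/L.

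The small-subunit protein rps20 had the highest fold change of the 63 at each of the 5 concentrations. All 5 fold changes share the same water pools, of which replicate D, at 3126 TPM, was the lowest. Across the 5 fluoxetine groups rps20 was not called (adjusted p = 0.304, edgeR). It stood at 4378, 4495 and 4774 TPM at 0.19 µg/L, at 5098, 4708, 4967, 4406 and 4932 TPM at 0.74 µg/L and at 4689, 4702 and 4549 TPM at 47.2 µg/L, against 3981, 3816, 3753, 3126 and 3755 TPM in water. These 3 groups lay above all water pools. Its log2 fold change of counts was 0.39 ± 0.11 at 0.19 µg/L (SE, adjusted p = 0.29, edgeR), 0.40 ± 0.10 at 0.74 µg/L (adjusted p = 0.159, edgeR) and 0.36 ± 0.11 at 47.2 µg/L (adjusted p = 0.268, edgeR). Its means at 3.38 and 10.2 µg/L were 4018 and 4001 TPM. The lowest at 0.19 and 47.2 µg/L was rpl32, of the large subunit, which stood at 3004, 2009 and 2735 TPM at 0.19 µg/L and at 3488, 1994 and 2199 TPM at 47.2 µg/L, against 3290, 3525, 3860, 3429 and 3210 TPM in water. Replicate A at 47.2 µg/L lay within the water pools and the other 2 below them.

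**Figure D5:**
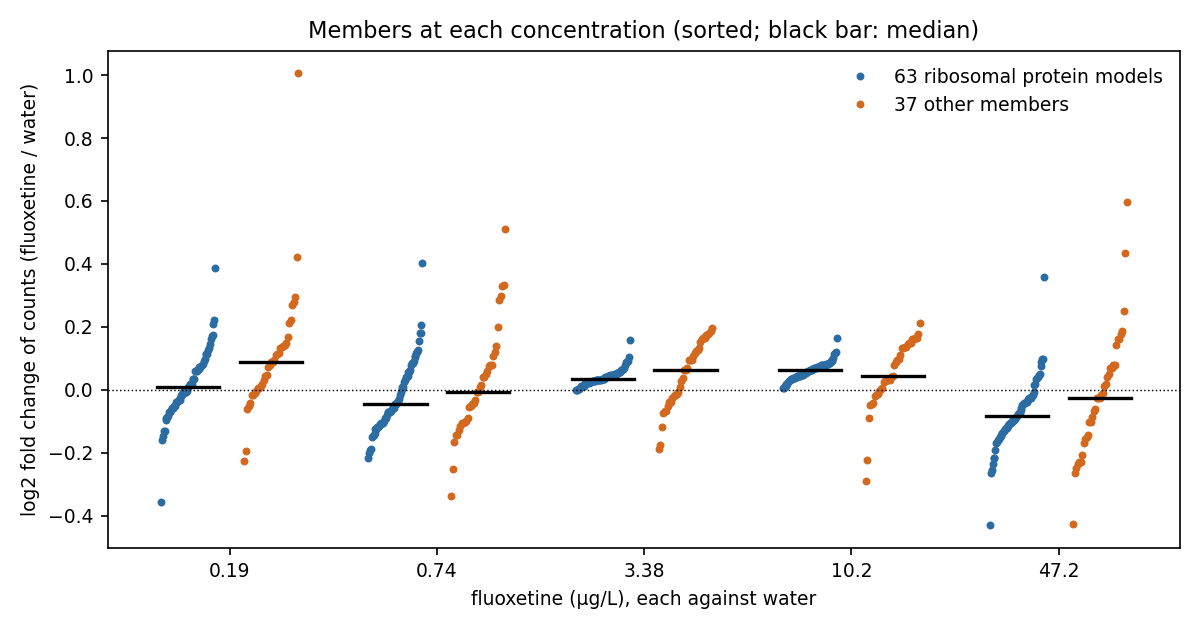
Log2 fold changes of counts against water of the 63 ribosomal protein members and the 37 other members at each concentration, sorted within each strip, with black bars at the medians. The ribosomal protein strips are flat at 3.38 and 10.2 µg/L and steep at 0.19, 0.74 and 47.2 µg/L. The highest point is the tpma transcript XM_039662810.1, at 1.01 at 0.19 µg/L.

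Outside the list, 19 other transcripts of the ribosomal protein list were tested. Of these, rpl23a, which stood just outside the list, was called higher at 0.19 µg/L (log2 fold change 0.56 ± 0.10 SE, adjusted p = 0.0326, edgeR) and at 0.74 µg/L (0.56 ± 0.09, adjusted p = 0.00873, edgeR). Its mean was 2168 TPM at 0.19 µg/L and 2248 TPM at 0.74 µg/L, against 1531 TPM in water. Across the 5 fluoxetine groups, 5 of the 19 were called, among them rplp2b, faub, rps27.1 and rpl23a, and 2 of the 63 members were. Of the 69 sarcomere transcripts outside the list, 6 were called in that test, among them 2 models of tpm1 and 1 of tpm2, tropomyosins like tpma, and of the 10 members 1 was. Of the 42 other cytoskeletal transcripts outside the list, 4 were called, cfl1l, pfn1, pfn2b and stmn1b, and of the 2 members 1 was. The background in this test was 3.99% of all transcripts.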

How the data were processed

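Pools of whole larvae were sequenced. The tools named in the submitters' processing notes are Trimmomatic 0.38, kallisto and DESeq2, the last 2 without a version. Which index and genome build were used is not given in the sources used here. For each library the authors deposited estimated counts and TPM per transcript and library, with transcript length and effective length. Per the file headers, the authors' comparison tables hold a mean of normalized counts (a signal), a log2 fold change, a test statistic (a score) and p-values.

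TPM served for levels, ranks and shares. Estimated counts were rounded and tested with edgeR 4.0.16 (limma 3.58.1, R 4.3.3) after filterByExpr, which kept 99.9% of counts, with TMM factors from 0.951 to 1.04, in 1 robust quasi-likelihood fit to 26 libraries. Tests were two-sided, with Benjamini-Hochberg adjustment over 43837 transcripts. The SE of a log2 fold change was derived from its F statistic. DESeq2 1.42.0 served as an alternative. The procedure was tested on simulated data. The 46 replicate pairs all differed by more than counting noise (lowest chi-square per degree of freedom 15.7). Fragment length was the median of length minus effective length over transcripts of at least 3000 bases. The gene table of the assembly fPimPro1.hap1.1, which may differ from the authors' build, paired 31554 transcripts (55.1%) and 94 members with a gene. Role lists were symbol patterns.

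Members, lists and tests were chosen with earlier results of these data known. Genes named are the 10 highest, the highest and lowest of each role, the 5 highest and 5 lowest by variation in water, all members called, the 3 highest and 3 lowest fold changes at 47.2 µg/L, and the 3 on each side of rank 100. Other genes in the text, such as rpl4, rps15 and those of the role lists, were named after their values were seen. A few items that this rule or the counts include are not reported here. No molecular identifiers were used, so counting precision covers counting error only.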

Additional observations from a re-analysis of the deposited data

Results flagged for a closer look

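In 2 of 164 groups of 5 pools examined among the named members, a pool stood apart from the other 4 by Dixon's criterion, which chance gives in about 1 of 20 groups (8.2 of 164). The level of rps20 in water replicate D was 3126 TPM, against 3753 to 3981 TPM in the other water pools. The level of tmsb4x at 10.2 µg/L in replicate D was 2273 TPM, against 1616 to 1743 TPM in the other pools at that concentration.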

How the results depend on the processing

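The 2 members called across the 6 groups became 15 with DESeq2, 6 with no scaling factor, 1 with TMM computed without the members, 1 with no count filter, 0 with fragment length as a covariate, 5 with counts summed per gene and 1 without replicate B at 0.19 and 47.2 µg/L, an alternative added after the data were seen. The 6 members called across the 5 fluoxetine groups became 15 with DESeq2, which included all 6, and 7 with no scaling factor. In the same test, 6 were called with TMM computed without the members, 4 with no count filter and 5 with counts summed per gene. Without those replicates B it was 2, and with fragment length as a covariate 0. With DESeq2, 2 members were called at 0.19 µg/L, 3 at 0.74 µg/L and 1 on the slope. Ranked by the fluoxetine pools, the list held 1 call at 0.19 µg/L and 1 at 0.74 µg/L, where rpl23a had entered. That ranking used the fluoxetine pools, so these calls are not independent of it and lean to higher in fluoxetine. Leaving out each library in turn gave 1 to 11 calls across the 6 groups and 1 to 10 across the 5 fluoxetine groups, both highest without replicate D at 10.2 µg/L, and 0 in each other test. Across the 6 groups it gave 6 without replicate B at 3.38 µg/L, 5 without replicate C at 10.2 µg/L, 3 without replicate A at 47.2 µg/L, 2 without replicate A or D of water, D at 3.38 or B or C at 47.2 µg/L, and 1 without any of the other 17. Across the 5 fluoxetine groups it gave 4 without any water pool or replicate A at 47.2 µg/L, 6 without replicate B at 47.2 µg/L, 7 and 8 without replicate C at 10.2 and B at 3.38 µg/L, and 1 to 3 without any of the other 16. The cause of these shifts was not tested. Except for DESeq2, the share of all transcripts called under each alternative in this section is not given here. A shift in the calls of members alone can thus not be told from one over all transcripts.

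From water to 47.2 µg/L in rising order, the share of TPM was 26.5%, 26.3%, 25.7%, 27.5%, 27.6% and 25.7% for the 50 highest and 46.6%, 47.1%, 46.6%, 47.5%, 47.8% and 45.5% for the 200 highest. The share of estimated counts of the 100 members was 22.7%, 22.9%, 22.3%, 23.4%, 23.5% and 22.0%. Their share of TPM over messenger RNA models only was 39.3%, 39.3%, 38.4%, 40.3%, 40.5% and 38.2%. With the replicate letter as a block, 8 members were called across the 6 groups, 11 across the 5 fluoxetine groups and 1 at 0.19 µg/L, the tpma transcript XM_039662810.1. The letters did not pair the pools by the rule used, since 8 of 57 same-letter pairs had a correlation of deviations over 0.1. Of 222 different-letter pairs, 0 did. The mean correlation was 0.0521 for the same letter, against -0.0134 for different letters. The main fit held no term for the letter. As a hint from the data, 25 of 26 libraries correlated best with one of their own letter. Of the values for named members under an alternative, 1293 were labelled the same, 123 weaker and 11 moved. These labels do not count the calls gained under an alternative. With DESeq2, for example, rps20 and actb2 gained a call at 0.74 µg/L and krt4 on the slope.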
